A study of Mus musculus with 27 samples.

Results

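Potassium channel genes of the Kcn family were followed in mouse cortex after a transient stroke. The members are the rows of the count table whose gene symbol begins with Kcn and a further letter and whose mean level over all libraries is at least 0.5 CPM (the usual unit of counts scaled to a common library total). The table of 22340 genes holds 93 such symbols, and 78 of them reached this level. The lowest members were Kcnrg at 0.618 CPM and Kcnj5 at 0.792 CPM, and just outside lay Kcnh8 at 0.47 CPM and Kcne2 at 0.436 CPM. Kcnn4, the intermediate-conductance calcium-activated channel, stood at 0.148 CPM and is no member. All 78 members also passed the filter on low counts, and 2 of them are antisense transcripts, Kcnd3os and Kcnmb4os2.

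The mice were wild-type C57BL6 animals aged 7 to 8 weeks. Under isoflurane, a nylon filament closed the middle cerebral artery on the right for 35 min, with the common carotid artery ligated, and blood flow was then restored. After 3, 6, 12 or 24 h of reperfusion, cortex was taken on the ipsilateral (occluded) or on the contralateral side. Sham animals had the same anaesthesia and exposed arteries but received no filament. Each of the 9 groups (sham, and 4 times on each side) had 3 libraries of RNA depleted of ribosomal RNA, and each replicate number stands for a separate day of surgery. Whether a pair of hemispheres came from the same animal, and which hemisphere gave the sham cortex, is not given in the labels.

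Potassium channels let potassium leave the cell, which sets the resting potential of neurons and glia and repolarises the membrane after an action potential. The family holds voltage-gated pores (Kcna, Kcnb, Kcnc, Kcnd, Kcnh and Kcnq), silent subunits that form channels only together with a Kcnb pore (Kcnf, Kcng, Kcns and Kcnv), inward rectifiers (Kcnj), tandem-pore leak channels (Kcnk), and pores opened by calcium or sodium (Kcnma, Kcnn and Kcnt). Auxiliary genes (Kcnab, Kcnip, Kcne and Kcnmb) encode proteins that bind these pores and change their gating or surface level. In cortex, neurons carry most voltage-gated types, while astrocytes rely on Kcnj10 to clear extracellular potassium.

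Promoter sequences are shown for Kcnj2 and Kcnip2, since these genes had the smallest adjusted p of a rise at 6 h and of a fall at 24 h. They were chosen after their values were seen. Each window runs 5′ to 3′ on the strand of the gene, from 250 bases before to 50 bases after the annotated start, and comes from RefSeq on GRCm38.p6. The Kcnj2 window is chr11:111065914-111066213 on the plus strand and the Kcnip2 window is chr19:45816014-45816313 on the minus strand. Capitals mark CACGTG, which holds the core of the hypoxia response element on both strands.
Kcnj2: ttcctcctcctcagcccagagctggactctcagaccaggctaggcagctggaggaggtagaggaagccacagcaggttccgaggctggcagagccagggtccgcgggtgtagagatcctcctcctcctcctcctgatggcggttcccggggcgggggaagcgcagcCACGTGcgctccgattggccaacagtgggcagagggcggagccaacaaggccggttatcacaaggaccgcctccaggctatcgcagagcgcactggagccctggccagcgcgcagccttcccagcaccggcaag
Kcnip2: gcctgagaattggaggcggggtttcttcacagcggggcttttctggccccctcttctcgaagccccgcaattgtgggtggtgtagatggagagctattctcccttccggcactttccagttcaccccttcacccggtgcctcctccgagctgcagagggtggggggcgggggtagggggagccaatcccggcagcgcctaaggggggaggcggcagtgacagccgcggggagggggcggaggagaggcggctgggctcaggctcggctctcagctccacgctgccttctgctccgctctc
Motifs were searched on both strands: the cyclic AMP response element (TGACGTCA), the AP-1 site (TGANTCA) and the hypoxia response element core (ACGTG). The first and the last of these both contain ACGT. The Kcnj2 window held the hypoxia core 84 bases before the start, and the Kcnip2 window held no match. Each window has 18 CpG dinucleotides, against a median of 7 over all promoter windows and of 10 over the windows of members. Of all promoter windows 70.3% have fewer than 18.

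RefSeq windows were matched for 56 of the 78 members, with 79 windows in all because some genes have several starts. The hypoxia core stood in 11 of these 79 windows (13.9%), and in 19.6% of all 32851 windows of the same length. The AP-1 site stood in 3 (3.8%), those of Kcnip3, Kcnip4 and Kcnk2, against 7.81% of all windows. The cyclic AMP response element stood in none of the 79, against 1.79% of all windows. Of the 7 windows of members that rose at 6 h, 1 held the hypoxia core. These matches describe letters and say nothing of binding.

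Total counts ran from 26505996 to 48830897 per library. Levels below are CPM over library sizes corrected by TMM, a scaling that allows for a few very abundant genes. The summed level of all members was 4999 to 5355 CPM in the 3 sham libraries, 4886 to 5143 CPM in contralateral cortex at 24 h and 3989 to 4118 CPM in ipsilateral cortex at 24 h. The ipsilateral libraries at 24 h lay below all libraries of both other groups. Per kilobase of exon in sham cortex, the highest levels were those of Kcna1, an axonal voltage-gated pore, at 70.5 ± 4.09 (SD, n = 3), and Kcnj4, an inward rectifier, at 60.9 ± 2.8. Kcnab2 followed at 57.8 ± 1.52 and Kcnk1 at 45.9 ± 3.96. In bulk cortex, fewer cells of a type and less RNA per cell cannot be told apart.

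A pair of libraries stood apart from the rest. In contralateral replicate 1 at 3 h, GC-rich genes stood 0.698 log2 units lower relative to GC-poor genes than in the mean of its group (a difference of -0.698). Each value is a deviation from the library's own group mean, so replicate 1 also raises those of replicates 2 and 3 (0.273 and 0.425). The libraries of all other groups lay between -0.262 and 0.237. In ipsilateral replicate 1 at 24 h, mitochondrial ribosomal RNA took 40.4% of the counts, where the others had 24.4% to 36.7%. Counts without both libraries are given beside the results that they move. The neuronal marker Slc17a7, which defines excitatory cortical neurons, still had a mean of 576 CPM in ipsilateral cortex at 24 h. The summed level of 5 striatal markers ran from 75.4 to 291.8 CPM over all libraries and that of 9 choroid plexus markers from 4.2 to 736.2 CPM.

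The main comparison set ipsilateral against contralateral cortex at each time. At 3 h, 1 member fell (Kcnd1) and none rose at an adjusted p under 0.05, where 0.0166% of all 18087 tested genes fell and 0.232% rose. At an unadjusted p under 0.05 there were 16 of the 78 members, against 1939 of the 18087 tested genes. At 6 h, 7 members rose and 5 fell (8.97% and 6.41%), against 5.85% and 2.14% of all tested genes. At 12 h, 2 rose and 13 fell (2.56% and 16.7%), against 7.94% and 4.3%. At 24 h, 3 rose and 20 fell (3.85% and 25.6%), against 9.74% and 9.36%. Among the 15665 tested genes at or above the members' own level of 0.5 CPM, 2.45% fell at 6 h and 4.93% at 12 h, and 10.8% did so at 24 h. The shares of the same genes that rose at those times were 6.28%, 8.32% and 9.86%. The median log2 fold change of the 78 members was -0.07, -0.11, -0.18 and -0.20 in order of time, where the median of all tested genes was 0.00, -0.02, -0.01 and 0.03.

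**Figure D1:**
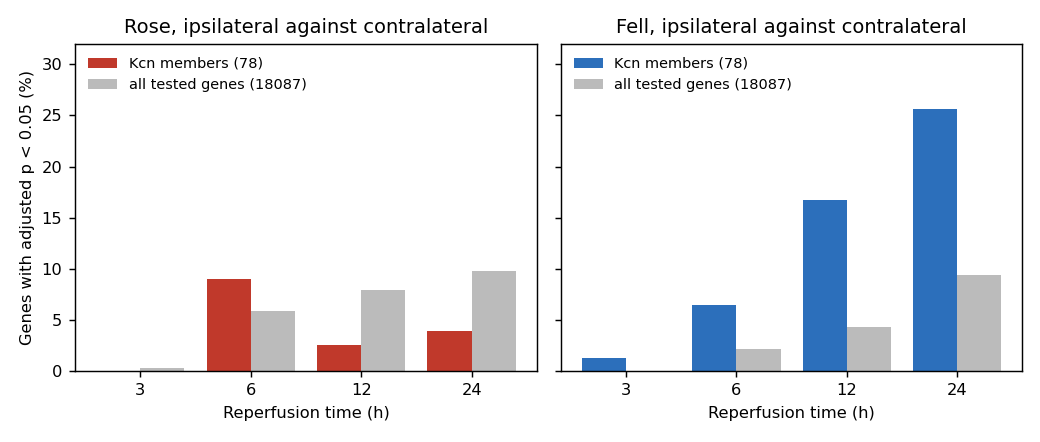
Share of the 78 Kcn members (coloured bars) and of all 18087 tested genes (grey bars) that rose (left) or fell (right) in ipsilateral against contralateral cortex, in percent, by reperfusion time in hours. The share of falling members climbs from 1.28% at 3 h to 25.6% at 24 h, while that of all genes ends at 9.36%.

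These counts depend on single libraries. Without ipsilateral replicate 1 or replicate 2 at 6 h, 5 members passed at 6 h in each case (2 rose and 3 fell, and 4 rose and 1 fell), and without contralateral replicate 2 or 3 it was 7. At 12 h, 6 passed without ipsilateral replicate 1, 9 without ipsilateral replicate 3 or contralateral replicate 3, and 10 without contralateral replicate 2. At 24 h, 9 passed without contralateral replicate 1 and 14 without ipsilateral replicate 2. A fit of the compared groups alone gave 14 calls at 24 h and kept 13 of the 23. Among the calls it lost were those of Kcnab1, Kcnc2, Kcnc4, Kcnd2, Kcnh7, Kcnip4, Kcnj6, Kcnj8 and Kcnq5, with adjusted p from 0.0526 (Kcnq5) to 0.116 (Kcnh7). The same kind of fit also lost the call of Kcnd1 at 3 h (adjusted p = 0.523). All 9 members that passed without contralateral replicate 1 fell, which is 9 of 78 beside 5.99% of all genes in that fit. Without both libraries that stand apart, 23 members passed at 12 h and 27 at 24 h. The share of all genes that passed in that fit is not given here, so these counts lack a background. A call that held whichever of the 6 compared libraries was left out is called stable below: 3 of 12 calls at 6 h (Kcnj2, Kcnk13, Kcnq3), 6 of 15 at 12 h (Kcnq3, Kcnh5, Kcna2, Kcnd2, Kcnj3, Kcnip2) and 6 of 23 at 24 h (Kcnq3, Kcnip2, Kcna2, Kcnh5, Kcnh3, Kcnab3) were stable.

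In all, 34 members passed at some time, 23 of them downward and 11 upward, and none passed in both directions. Of all tested genes 11.5% fell and 15.5% rose at some time, and 0.0498% passed in both directions. Kcnq3, Kcna2 and Kcnh5 fell at all of 6, 12 and 24 h. Of the 13 members that fell at 12 h, 11 also fell at 24 h (84.6% of the 13 and 55.0% of the 20 that fell at 24 h). Of all tested genes 777 fell at 12 h, and 544 of them also fell at 24 h, which is 70.0% of those and 32.1% of the 1693 that fell at 24 h. Of the 7 rises at 6 h and the 2 at 12 h, Kcna3 was common to both, and none of the 3 rises at 24 h was among the earlier ones. The contralateral and ipsilateral libraries of each time are separate, so these comparisons set no library against another more than once. They come from a single model, however, in which the spread of each gene is estimated from all libraries. Same-numbered libraries also share a day of surgery, so calls at different times are not independent.

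**Figure D2:**
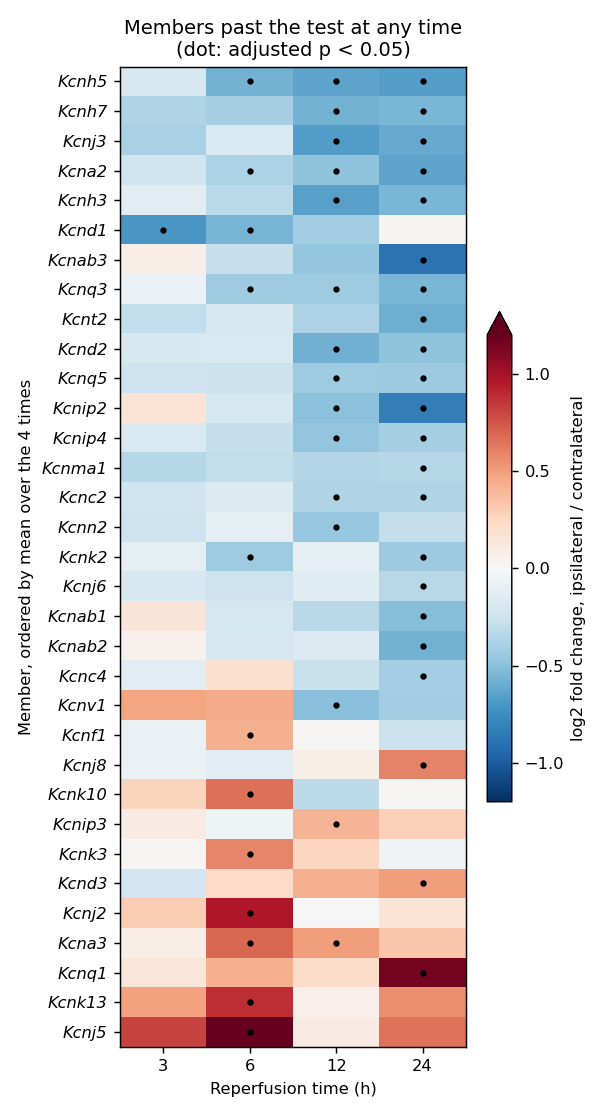
Log2 fold change (colour) of ipsilateral over contralateral cortex for members that passed at any time (1 is not shown), ordered by their mean over the 4 reperfusion times (columns, in hours). Dots mark an adjusted p under 0.05, and values past the end of the colour bar take its darkest colour. Of the dots of falling members, 13 stand at 12 h, and of those of rising members 7 stand at 6 h and 2 at 12 h.

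Kcnq3 encodes a subunit of the M channel, a slow neuronal brake on repeated firing (chr15:65986387-66286642, minus strand). Its level in sham cortex was 107, 109 and 116 CPM. At 6 h it was 114, 115 and 115 CPM in contralateral and 87.3, 83.1 and 85.1 CPM in ipsilateral cortex. The ipsilateral libraries were 1.35-fold lower (log2 fold change -0.43, SE 0.09, adjusted p = 0.00265). At 24 h the contralateral libraries had 103, 105 and 113 CPM and the ipsilateral ones 75, 73.9 and 70.2 CPM, with no overlap. The fall at 24 h was 1.46-fold (log2 fold change -0.55, SE 0.09, adjusted p = 0.000119), and Kcnq3 had stable calls at 6, 12 and 24 h. Kcnq5, a further M channel subunit, fell at 12 h (log2 fold change -0.42, adjusted p = 0.0182) and at 24 h (-0.44, adjusted p = 0.0103). Its call was lost at 12 h without contralateral replicate 1 (adjusted p = 0.0577) or ipsilateral replicate 1 (0.082) or 3 (0.0614), and at 24 h without contralateral replicate 1 (0.0673) or ipsilateral replicate 3 (0.0781).

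Kcnq1, a pore of the same subfamily better known from heart and epithelia, went the other way at a low level. At 24 h it was at 1.1, 1.87 and 1.83 CPM in contralateral and 3.85, 2.65 and 4.15 CPM in ipsilateral cortex. All ipsilateral libraries lay above all contralateral ones, by 2.22-fold (log2 fold change 1.15, SE 0.31, adjusted p = 0.0104). Without contralateral replicate 1 the adjusted p was 0.0766. In the same libraries 4 of 7 tested markers of infiltrating myeloid cells rose, and their summed level was 92.6, 41 and 17.5 CPM in ipsilateral replicates 1 to 3, against 11.6 to 23.8 CPM in contralateral cortex. Defining markers were low, with Ccr2 at a mean of 0.915 CPM, and their part in the Kcnq1 result was not tested.

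Among the Kv1 pores, Kcna2 encodes a low-threshold channel of axons (chr3:107101146-107115005, plus strand). It measured 143, 129 and 153 CPM in sham cortex. At 12 h it was at 159, 163 and 166 CPM in contralateral and at 116 CPM in each of the ipsilateral libraries. At 24 h it was at 169, 141 and 167 against 125, 103 and 81.2 CPM, again with no overlap. The fall was 1.4-fold at 12 h (log2 fold change -0.49, SE 0.12, adjusted p = 0.00835) and 1.55-fold at 24 h (-0.63, SE 0.12, adjusted p = 0.000744), both stable. The smaller fall at 6 h (log2 fold change -0.38, adjusted p = 0.0493) was lost without any of the 6 libraries (adjusted p from 0.0628 to 0.235) and with RLE size factors (0.0557). Kcna1, the most abundant Kv1 pore, did not pass at any time, with 302.9 ± 42.4 CPM in ipsilateral and 353.9 ± 52.1 CPM in contralateral cortex at 24 h (SD, n = 3).

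Kcna3 encodes a Kv1 pore known from lymphocytes and microglia as well as neurons (chr3:107036169-107038070, plus strand). In sham cortex it was at 13, 12.9 and 13 CPM. At 6 h the contralateral libraries had 13.8, 11 and 11.9 CPM and the ipsilateral ones 23.2, 17.8 and 18.3 CPM. The rise was 1.61-fold at 6 h (log2 fold change 0.69, SE 0.16, adjusted p = 0.00707) and 1.41-fold at 12 h (0.50, SE 0.16, adjusted p = 0.0393), with no overlap at either time. At 6 h the call was lost without ipsilateral replicate 1 (adjusted p = 0.0639). At 12 h it was lost without any library other than contralateral replicate 1 and ipsilateral replicate 2 (0.0764 to 0.232). At 6 h, none of 6 microglial and none of 7 tested infiltrating myeloid markers rose, and the microglial marker Tmem119 fell. No marker list covered lymphocytes. The part of any of these cells in the Kcna3 result was not tested.

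The 3 Kv1 beta subunits, cytoplasmic partners of the Kv1 pores, all fell at 24 h and at no earlier time. Among all tested genes 9.36% fell at 24 h. Kcnab3 (chr11:69326258-69333042, plus strand) was at 37.9, 33.8 and 41 CPM in contralateral and 19.3, 19 and 22.5 CPM in ipsilateral cortex at 24 h, and at 33.2, 30.1 and 26.4 CPM in sham cortex. Its fall was 1.85-fold (log2 fold change -0.89, SE 0.21, adjusted p = 0.00392), the lowest log2 fold change of all members at 24 h, and stable. Kcnab2, the most abundant of the 3, was at 370, 352 and 378 CPM against 220, 262 and 262 CPM at 24 h. It fell 1.48-fold (log2 fold change -0.56, adjusted p = 0.0157), but without ipsilateral replicate 1 the adjusted p was 0.0737. Kcnab1 fell 1.42-fold (log2 fold change -0.51, adjusted p = 0.037), a call lost without any library other than contralateral replicate 3 and ipsilateral replicate 1 (0.0734 to 0.184). Against sham, none of the 3 passed at 24 h (adjusted p = 0.0528 for Kcnab3, 0.095 for Kcnab2 and 0.103 for Kcnab1).

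The EAG, ERG and ELK pores gave 3 falls of 7 members at both 12 and 24 h. Falls made up 4.3% of all tested genes at 12 h and 9.36% at 24 h. Kcnh5, an EAG pore of neurons (chr12:74897220-75177332, minus strand), was at 98.3, 97.6 and 115 CPM in sham cortex. It was at 128, 115 and 130 against 90.2, 76.4 and 84.1 CPM at 6 h, and at 131, 116 and 105 against 82, 74.9 and 64.8 CPM at 24 h, contralateral first. The groups did not overlap at either time. The fall was 1.48-fold at 6 h (log2 fold change -0.57, SE 0.13, adjusted p = 0.00607), 1.55-fold at 12 h (-0.63, adjusted p = 0.00176) and 1.58-fold at 24 h (-0.66, adjusted p = 0.000843). The calls at 12 and 24 h were stable, and that at 6 h was lost without ipsilateral replicate 2 (adjusted p = 0.0598).

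Kcnh3, a forebrain ELK pore (chr15:99224861-99242817, plus strand), was at 129, 128 and 122 CPM in contralateral and 68.3, 86.4 and 86.6 CPM in ipsilateral cortex at 12 h. It fell 1.57-fold at 12 h (log2 fold change -0.65, SE 0.15, adjusted p = 0.00415) and 1.46-fold at 24 h (-0.55, adjusted p = 0.0102). The fall at 24 h was stable, while that at 12 h was lost without ipsilateral replicate 1 (0.0546). Kcnh7, an ERG pore, fell at 12 h (log2 fold change -0.57, adjusted p = 0.0284) and 24 h (-0.54, adjusted p = 0.0257). At 12 h it lost the call without any library other than contralateral replicate 1 and ipsilateral replicate 2 (0.0743 to 0.126), and at 24 h without any other than contralateral replicate 3 and ipsilateral replicate 1 (0.05 to 0.199).

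**Figure D3:**
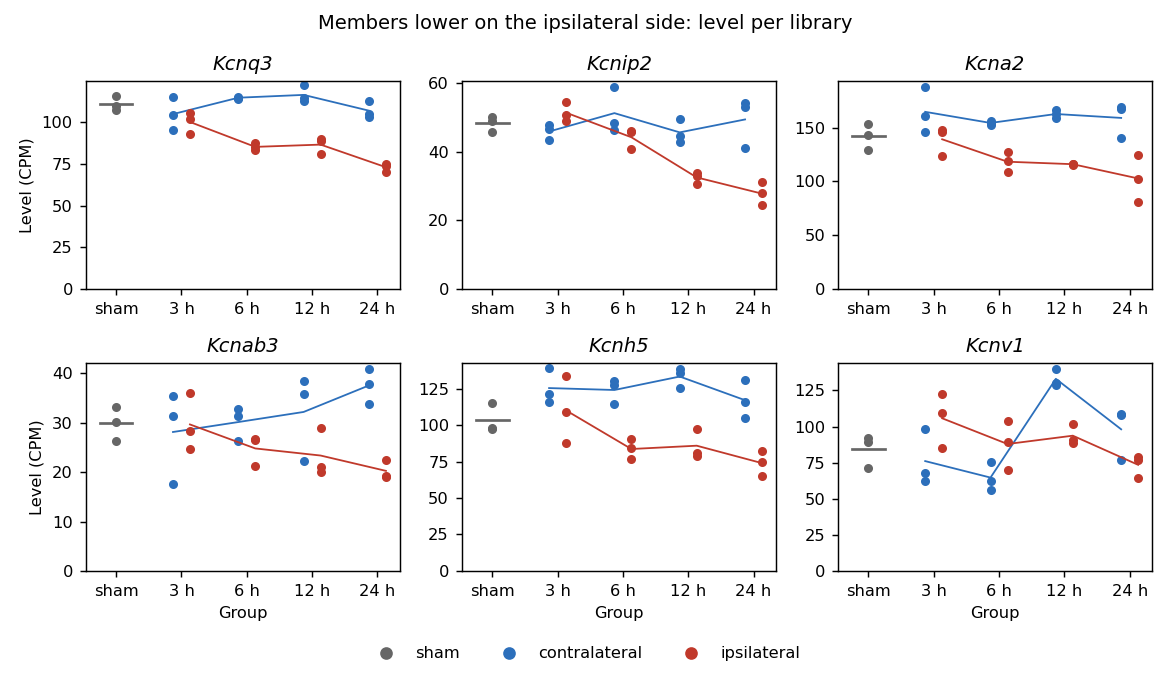
Level in CPM of 6 members in each library, with sham in grey (bar: mean), contralateral in blue and ipsilateral in red (lines join group means), by reperfusion time. For Kcnq3, Kcnip2, Kcna2, Kcnab3 and Kcnh5 the ipsilateral libraries at 24 h lie below all contralateral ones, while Kcnv1 shows its highest contralateral levels, 129 to 140 CPM, at 12 h.

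Kv4 pores carry the fast A-type current of dendrites, and the Kv channel-interacting proteins (KChIPs) bind them. Kcnip2, a KChIP (chr19:45791839-45816061, minus strand), was at 48.8, 50.2 and 45.8 CPM in sham cortex. Ipsilateral cortex had 50.6, 49 and 54.4 CPM at 3 h, 40.9, 45.8 and 45.9 at 6 h, 33, 33.9 and 30.6 at 12 h and 31.1, 24.4 and 28 at 24 h. The contralateral libraries had 43.5, 47.7 and 46.5 CPM at 3 h and 54.1, 52.9 and 41.2 CPM at 24 h. Kcnip2 was therefore above all contralateral libraries at 3 h (log2 fold change 0.16, SE 0.12, adjusted p = 0.656, not passed) and below all of them at 24 h. It fell 1.4-fold at 12 h (log2 fold change -0.49, SE 0.12, adjusted p = 0.00583) and 1.78-fold at 24 h (-0.83, SE 0.12, adjusted p = 2.61e-05), and both calls were stable. Its effect differed between the 4 times (adjusted p = 0.00726).

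Kcnd2, the main Kv4 pore of forebrain dendrites (chr6:21215503-21729805, plus strand), was at 123, 102 and 111 CPM in contralateral and 71, 77.2 and 77.3 CPM in ipsilateral cortex at 12 h. It fell 1.49-fold (log2 fold change -0.58, SE 0.14, adjusted p = 0.00528), a stable call. At 24 h the groups overlapped, at 109, 94.8 and 78.9 against 81.3, 64.7 and 56 CPM. The fall there (log2 fold change -0.48, adjusted p = 0.0124) was lost without contralateral replicate 1 (0.0889) or ipsilateral replicate 3 (0.0832). Kcnip4 fell at 12 h (log2 fold change -0.47, adjusted p = 0.0237) and 24 h (-0.40, adjusted p = 0.0399). It lost the call at 12 h without contralateral replicate 3 (0.199) or ipsilateral replicate 1 (0.1) or 2 (0.086), and at 24 h without any library other than contralateral replicate 3 and ipsilateral replicate 1 (0.0515 to 0.215).

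Kcnd1, a low-abundance Kv4 pore (chrX:7822289-7838280, plus strand), was the sole member past the test at 3 h. It was at 13.5, 9.67 and 11 CPM in contralateral, 7.6, 6.81 and 6.7 CPM in ipsilateral and 8.27, 7.94 and 9.01 CPM in sham cortex. All contralateral libraries lay above sham and all ipsilateral ones below it, and the ipsilateral difference from sham did not pass (log2 fold change -0.26, adjusted p = 0.659). The fall was 1.62-fold at 3 h (log2 fold change -0.69, SE 0.14, adjusted p = 0.0232) and 1.48-fold at 6 h (-0.56, adjusted p = 0.0113), and at 24 h the log2 fold change was 0.03 (adjusted p = 0.907). At 3 h the call was lost without contralateral replicate 1 (adjusted p = 0.154) or 3 (0.0632), without ipsilateral replicate 2 (0.166) or 3 (0.158), without both libraries that stand apart (0.125), and in a fit of these 6 libraries alone (0.523). At 6 h it was lost without contralateral replicate 1 (0.0964) or ipsilateral replicate 2 (0.0506).

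Members of these 2 subfamilies also rose. Kcnd3, a further Kv4 pore, was at 76.1, 87.9 and 82.6 CPM in contralateral and 111, 110 and 129 CPM in ipsilateral cortex at 24 h, with no overlap. It rose 1.42-fold (log2 fold change 0.51, SE 0.16, adjusted p = 0.0241), and the call was lost without contralateral replicate 1 (0.102) or 3 (0.0536) or ipsilateral replicate 3 (0.0987). Its antisense transcript Kcnd3os did not pass. The counting is not stated to use strand, so it is unknown whether reads of the overlapping pair were told apart. Kcnip3, a KChIP that is also known as the transcriptional repressor DREAM, was at 71.2, 66.4 and 72.9 against 99.8, 101 and 78.8 CPM at 12 h, while sham cortex had 96.5, 87.1 and 89.8 CPM. It rose 1.33-fold against contralateral cortex (log2 fold change 0.41, adjusted p = 0.0345), where its log2 fold change against sham was 0.03 (adjusted p = 0.917). The call was lost without any library other than ipsilateral replicate 3 (0.0662 to 0.165).

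Kv3 pores let fast-spiking neurons repolarise quickly. At 24 h Kcnc4 fell 1.32-fold (log2 fold change -0.40, adjusted p = 0.0135) and Kcnc2 1.29-fold (-0.36, adjusted p = 0.0249). Kcnc2 had also fallen at 12 h (-0.36, adjusted p = 0.0342). In each case all ipsilateral libraries lay below all contralateral ones. Neither gene had a stable call. Kcnc4 lost the call without contralateral replicate 2 (0.058) or ipsilateral replicate 1 (0.0672) or 2 (0.0564). Kcnc2 lost it at 24 h without any other than contralateral replicate 3 and ipsilateral replicate 1 (0.0533 to 0.142) and at 12 h without any of the 6 (0.0504 to 0.167). Of the interneuron markers, 2 of 6 fell at 24 h, among them Pvalb, which marks fast-spiking cells (log2 fold change -0.99, SE 0.20, adjusted p = 0.000912). The part of these cells in the results for Kcnc2 and Kcnc4 was not tested.

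The 9 silent subunits gave 1 rise at 6 h and 1 fall at 12 h. Among all tested genes 5.85% rose at 6 h and 4.3% fell at 12 h. Kcnv1 (chr15:45106284-45114920, minus strand) had an effect that changed sign with time. In contralateral cortex it was at 98.2, 62.2 and 67.9 CPM at 3 h, 56.4, 62.4 and 75.3 at 6 h, 130, 140 and 129 at 12 h and 109, 108 and 77.1 at 24 h. In ipsilateral cortex it was at 109, 85.3 and 123 CPM at 3 h, 104, 89.6 and 70.3 at 6 h, 88.7, 102 and 90.7 at 12 h and 64.4, 77.1 and 79.1 at 24 h. The contralateral libraries at 12 h lay above those of every other group. Sham cortex had 71.1, 92.4 and 89.2 CPM.

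The log2 fold change of Kcnv1 was 0.47 at 3 h and 0.44 at 6 h (adjusted p = 0.29 and 0.108), -0.51 at 12 h (SE 0.17, adjusted p = 0.0477) and -0.42 at 24 h (adjusted p = 0.0837), and the effect differed between the times (adjusted p = 0.0227). The fall at 12 h was lost with the replicate block (0.0543), with RLE size factors (0.0557) and without any library other than ipsilateral replicate 2 (0.0832 to 0.171). Against sham, Kcnv1 at 12 h had a log2 fold change of 0.15 in ipsilateral cortex (adjusted p = 0.628). Kcnf1, a silent subunit abundant in cortex, was at 198, 139 and 147 CPM in contralateral and 239, 205 and 208 CPM in ipsilateral cortex at 6 h. It rose 1.35-fold (log2 fold change 0.43, adjusted p = 0.0447), a call lost without any library other than contralateral replicate 1 (0.0538 to 0.214).

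Among the inward rectifiers, Kcnj2 had the smallest adjusted p of all rises. Kcnj2, a classical strong inward rectifier of neurons and vessels (chr11:111066164-111076821, plus strand), was at 27.4, 31.5 and 25 CPM in sham cortex. At 6 h it was at 27.3, 29.3 and 34 CPM in contralateral and 67.3, 61.7 and 47.9 CPM in ipsilateral cortex. The rise was 1.95-fold (log2 fold change 0.97, SE 0.16, adjusted p = 0.000178), with no overlap, and was stable. At 12 h both hemispheres were high, at 55.4, 40.9 and 47.9 CPM contralaterally and 50, 42.9 and 51.5 CPM ipsilaterally. Contralateral cortex at 12 h exceeded sham 1.72-fold (log2 fold change 0.78, SE 0.16, adjusted p = 0.0196) and ipsilateral cortex exceeded sham by about as much (0.78, SE 0.16, adjusted p = 0.00162), so that the sides did not pass against each other (0.00, SE 0.15, adjusted p = 0.996). At 24 h they were at 35.1, 26.9 and 31.1 against 33.6, 35.5 and 35.1 CPM.

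Kcnj2 was the sole member past the test in contralateral against sham cortex in the reported model, where 0.238% of all tested genes passed at 12 h in either direction. Its call there was lost without sham replicate 1 (adjusted p = 0.159) or 3 (0.122) and without contralateral replicate 1 (0.1) or 3 (0.0984), while the ipsilateral rises against sham at 6 and 12 h were stable. At 12 h DESeq2 called 3 members (Kcnj2, Kcnj12 and Kcnv1). Both the fit of the compared groups alone and that without the libraries that stand apart called these and Kcnip3, 4 in all. At 3, 6 and 24 h no member passed in this comparison in the reported model, against 0.0111%, 0.0332% and 0.111% of all tested genes. At an unadjusted p under 0.05 there were 11, 3 and 9 of the 78 members at these times. The same held for 1563, 778 and 1171 of the 18087 tested genes. DESeq2 called 1, 0 and 2 members. The call at 3 h was Kcns2. It also passed in edgeR with RLE size factors, with no filter on low counts and with the replicate number as a block. Kcns2 had a mean of 53.1 CPM in ipsilateral cortex at 3 h and of 37.1 CPM in sham cortex. Contralateral cortex at 3 h was higher still, with a log2 fold change of ipsilateral over contralateral of -0.37 (not passed). Its highest count at 3 h was 3309, in contralateral replicate 1, which stands apart. At 24 h edgeR called 1 member (Kcnip3) in the compared groups alone and 2 (Kcnip3 and Kcnj12) without both libraries that stand apart.

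**Figure D4:**
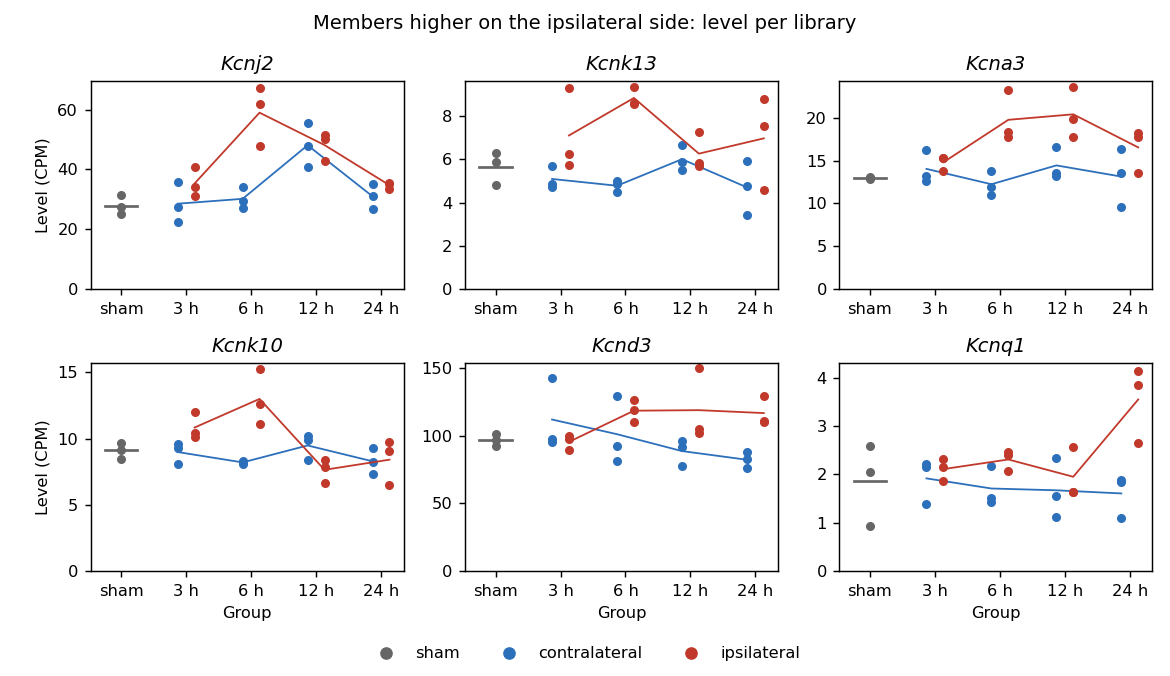
Level in CPM of 6 members in each library, with sham in grey (bar: mean), contralateral in blue and ipsilateral in red (lines join group means), by reperfusion time. Kcnj2, Kcnk13, Kcna3 and Kcnk10 are separated between the sides at 6 h, Kcnd3 and Kcnq1 at 24 h, and Kcnj2 is high on both sides at 12 h.

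Kcnj3 and Kcnj6 encode subunits of the G protein-gated channels that hyperpolarise neurons. Kcnj3 (chr2:55435970-55598145, plus strand) was at 113, 118 and 118 CPM in contralateral and 67.9, 81.1 and 70.6 CPM in ipsilateral cortex at 12 h. It fell 1.59-fold at 12 h (log2 fold change -0.67, SE 0.16, adjusted p = 0.00644, stable) and 1.52-fold at 24 h (-0.60, adjusted p = 0.00949), where the call was lost without contralateral replicate 1 (0.0647). Against sham (96.7, 83.2 and 95.9 CPM) it did not pass at 12 h (log2 fold change -0.33, adjusted p = 0.203). Kcnj6 fell at 24 h (log2 fold change -0.33, adjusted p = 0.0293), a call lost without any library other than ipsilateral replicate 1 (0.0551 to 0.0833).

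Kcnj5, of the same channel type, was near the detection limit and had the highest fold change at 6 h. It was at 0.817, 0.28 and 0.305 CPM in contralateral and 1.84, 1.51 and 1.29 CPM in ipsilateral cortex, with 0.741, 0.455 and 1.05 CPM in sham. The rise was 3.27-fold (log2 fold change 1.71, SE 0.48, adjusted p = 0.026). It was lost without any library other than contralateral replicate 1 and ipsilateral replicate 3 (0.0765 to 0.13), and against sham the adjusted p was 0.189.

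Kcnj8, the pore of the vascular ATP-sensitive channel, was at 3.57, 3.49 and 3.51 CPM in contralateral and 6.23, 5.3 and 4.45 CPM in ipsilateral cortex at 24 h, and at 4.31, 4.85 and 4.49 CPM in sham. It rose 1.51-fold against contralateral cortex (log2 fold change 0.59, SE 0.21, adjusted p = 0.0487) and did not pass against sham (0.23, adjusted p = 0.474). The call was lost without any library other than ipsilateral replicate 3 (0.0998 to 0.199) and without both libraries that stand apart (0.0856). None of 5 pericyte markers passed at 24 h, with a summed level of 111.6 to 123.6 CPM in ipsilateral and 120.1 to 128.9 CPM in contralateral cortex. At that time 1 of 5 endothelial markers rose and 1 fell. The part of vascular cells in the Kcnj8 result was not tested.

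Kcnj10, the astrocytic potassium-buffering channel, did not pass at any time. At 24 h it was at 46.9, 42.6 and 60.4 CPM in contralateral and 70, 48.5 and 52.5 CPM in ipsilateral cortex (log2 fold change 0.19, SE 0.16, adjusted p = 0.431), and its groups overlapped at all 4 times. Of 6 astrocyte markers, 1 rose and 1 fell at 24 h. Kcnj13, a rectifier of transporting epithelia such as the choroid plexus, was at 3.8 CPM in ipsilateral replicate 1 at 3 h and at 0.526 and 0.558 CPM in replicates 2 and 3. The same library had the highest summed level of choroid plexus markers, 736.2 CPM against 12.6 and 14.7 CPM. Without it the log2 fold change of Kcnj13 at 3 h went from 1.26 (SE 0.56, adjusted p = 0.415) to -0.30.

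Leak channels set the resting conductance and gave 3 rises and 1 fall among 9 members at 6 h. At that time 5.85% of all tested genes rose and 2.14% fell. Kcnk13 (chr12:99964499-100062682, plus strand) is known as the tonic potassium channel of microglia. It was at 4.99, 4.85 and 4.51 CPM in contralateral, 8.57, 8.61 and 9.32 CPM in ipsilateral and 4.82, 6.28 and 5.86 CPM in sham cortex. The rise at 6 h was 1.85-fold (log2 fold change 0.89, SE 0.21, adjusted p = 0.00784) and stable. At the same time 1 of 6 microglial markers fell, Tmem119 (log2 fold change -1.02, adjusted p = 0.0059), and none rose. The summed level of the 6 was 144.4 to 157.6 CPM in ipsilateral and 160.9 to 198.1 CPM in contralateral cortex. The part of microglia in the Kcnk13 result was not tested.

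Kcnk10, a mechanically gated leak channel of the TREK type, was at 8.24, 8.06 and 8.3 CPM in contralateral and 15.3, 12.6 and 11.1 CPM in ipsilateral cortex at 6 h. It rose 1.58-fold (log2 fold change 0.66, SE 0.15, adjusted p = 0.00563), a call lost without ipsilateral replicate 1 (0.0612). At 12 h its log2 fold change was -0.31 (adjusted p = 0.189). Kcnk3, an acid-sensitive leak channel, was at 19.4, 18.1 and 17.2 against 27.8, 30.2 and 23.9 CPM at 6 h. It rose 1.5-fold (log2 fold change 0.58, SE 0.16, adjusted p = 0.0223), a call lost without any library other than contralateral replicate 1 and ipsilateral replicate 3 (0.073 to 0.148). At 24 h Kcnk3 had a log2 fold change of -0.04.

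Kcnk2, the TREK channel linked in earlier work to protection from ischaemia, moved opposite to Kcnk10 at 6 h. It was at 37.1, 44.6 and 35.7 CPM in contralateral and 31.6, 25 and 30.6 CPM in ipsilateral cortex. It fell at 6 h (log2 fold change -0.43, SE 0.14, adjusted p = 0.0489) and at 24 h (-0.43, adjusted p = 0.0252). At 6 h the call was lost without any of the 6 libraries (0.057 to 0.274) and with RLE size factors (0.0542), and at 24 h without contralateral replicate 1 (0.12) or 2 (0.0583) or ipsilateral replicate 3 (0.101).

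Among the pores opened by calcium or sodium, Kcnma1, the large-conductance BK channel, was at 272, 246 and 237 CPM in contralateral and 206, 190 and 201 CPM in ipsilateral cortex at 24 h. It fell 1.26-fold (log2 fold change -0.34, SE 0.12, adjusted p = 0.0456), a call lost without any library other than contralateral replicate 3 (0.0647 to 0.156). Kcnt2, a sodium-activated pore, fell 1.51-fold at 24 h (log2 fold change -0.59, SE 0.15, adjusted p = 0.00531), lost without contralateral replicate 1 (0.0532). Its relative Kcnt1 did not pass, at 94, 111 and 110 against 91.1, 75.1 and 94.9 CPM. The SK channel Kcnn2 fell at 12 h (log2 fold change -0.46, SE 0.13, adjusted p = 0.0243), a call lost without any library other than contralateral replicate 3 and ipsilateral replicate 2 (0.051 to 0.126).

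Among all tested genes 9.36% fell and 9.74% rose at 24 h. By role at 24 h, 10 of 27 voltage-gated pores fell and 2 rose, and 5 of 12 auxiliary subunits fell. None of the 9 silent subunits passed. Of 12 inward rectifiers 2 fell and 1 rose, of 9 leak channels 1 fell, and of 7 pores grouped as calcium- or sodium-gated 2 fell. That group of 7, also in its median below, counts Kcnu1, the sperm Slo3 pore. Kcnu1 is not among the genes named above as opened by calcium or sodium. The medians were -0.21 for voltage-gated pores, -0.21 for auxiliary subunits, -0.26 for silent subunits, 0.04 for inward rectifiers, -0.03 for leak channels and -0.29 for the calcium- or sodium-gated pores (log2 fold change). The median of all tested genes at 24 h was 0.03. The differences between roles were not tested.

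**Figure D5:**
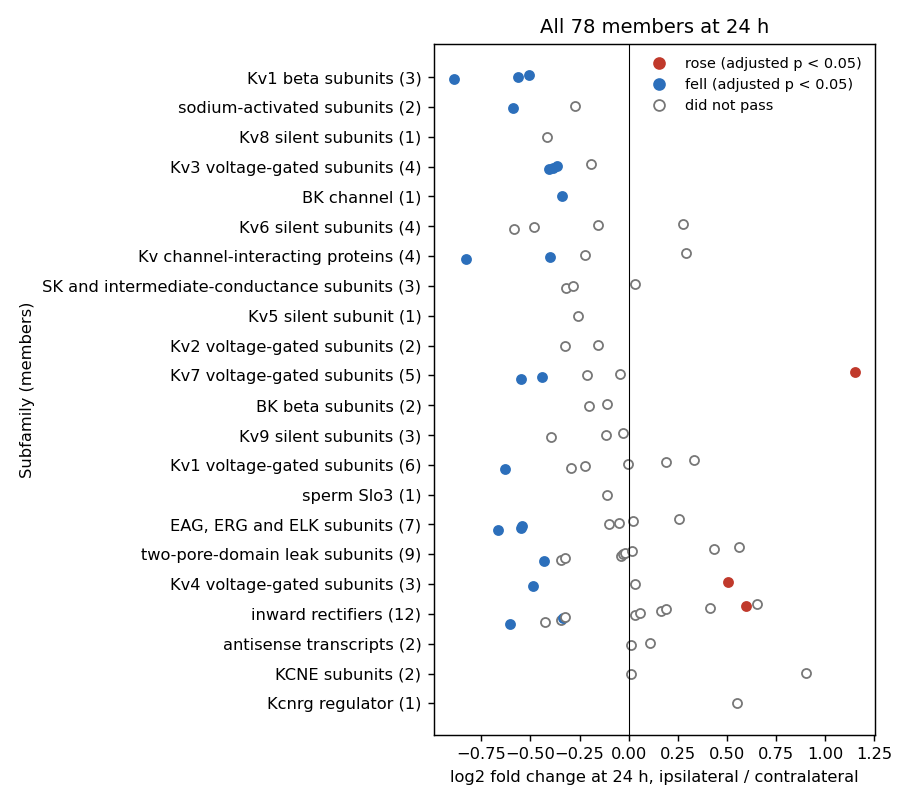
Log2 fold change at 24 h of ipsilateral over contralateral cortex for all 78 members (points), by subfamily, with the number of members in brackets. Red points rose, blue points fell and open points did not pass at an adjusted p of 0.05. All 3 Kv1 beta subunits are blue, while the inward rectifiers lie on both sides of 0.

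Against sham, the same ipsilateral libraries gave no call at 3 h in the reported model, where 0.227% of all tested genes rose and 0.0166% fell. DESeq2 gave none either. At an unadjusted p under 0.05 there were 7 of the 78 members, against 1551 of the 18087 tested genes. Kcns2 passed at 3 h in the compared groups alone, and Kcns2 and Kcnj8 did so without both libraries that stand apart. In the reported model the log2 fold change against sham at 3 h was 0.52 for Kcns2 (adjusted p = 0.21). It was -0.76 for Kcnj8 (adjusted p = 0.148). At 6 h, 5 members rose and 1 fell, against 5.03% and 1.09% of all genes. At 12 h, 2 rose and 11 fell, against 6.58% and 3.72%, and at 24 h, 1 rose and 26 fell, against 11.3% and 10.9%. In the compared groups alone 14 members passed at 6 h (11 rose and 3 fell) and 22 at 12 h (2 rose and 20 fell). The share of all genes that passed in those fits is not given here. The comparisons with sham share the sham libraries with each other and the ipsilateral libraries with the comparison between the sides. Of the 27 calls at 24 h, 11 were stable. Without a library the count was 2 at 6 h (sham replicate 2 or 3, or ipsilateral replicate 1 or 2) and 3 without sham replicate 1. At 12 h it was 3 without ipsilateral replicate 1 and 6 without sham replicate 1 or 3 or ipsilateral replicate 3, and at 24 h it was 15 without sham replicate 3 and 16 without ipsilateral replicate 3.

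Several members passed against sham at 24 h and not against contralateral cortex. Kcnj12, an inward rectifier, was at 13.5, 14.4 and 15 CPM in sham, 9.98, 8.8 and 10.1 CPM in contralateral and 7.8, 8.21 and 7.09 CPM in ipsilateral cortex at 24 h. Its log2 fold change against sham was -0.89 (SE 0.14, adjusted p = 7.52e-05, stable). Kcng1, a silent subunit, was at 12.4, 9.81 and 12.7 CPM in sham, 6.84, 13.7 and 5.92 CPM in contralateral and 4.61, 6.81 and 6.17 CPM in ipsilateral cortex, with a log2 fold change against sham of -0.99 (SE 0.22, adjusted p = 0.00207, stable). Kcnf1, which had risen against contralateral cortex at 6 h, fell against sham at 24 h (log2 fold change -0.55, SE 0.13, adjusted p = 0.00405, stable). Kcnn1, an SK subunit, also fell (-0.60, SE 0.15, adjusted p = 0.00383, stable). Kcnq3 (-0.60, adjusted p = 3.58e-05) and Kcnip2 (-0.80, adjusted p = 3.29e-05) passed against both references.

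Averaged over the 4 times, the effect between the sides was upward in 7 members and downward in 30, against 17.7% and 15.3% of all tested genes. Kcnq3 (mean log2 fold change -0.37, SE 0.04, adjusted p = 4.29e-07), Kcnh5 (-0.51, SE 0.07, adjusted p = 8.81e-07) and Kcna2 (-0.44, SE 0.06, adjusted p = 3.68e-06) had the smallest adjusted p. Of these 37 calls, 28 held without any single library. The effect differed between the times for 2 members, Kcnip2 and Kcnv1, where 1.34% of all tested genes passed. At an unadjusted p under 0.05 there were 17 of the 78 members, against 3005 of the 18087 tested genes. Kcnj2 and Kcnk10 lay just outside the adjusted threshold, each at an adjusted p of 0.0544. Without contralateral replicate 1 at 3 h the count was 6, without ipsilateral replicate 3 at 24 h it was 5, and without contralateral replicate 2 at 3 h or ipsilateral replicate 3 at 6 h it was 4. With DESeq2 it was 5, with the replicate block 4, and without both libraries that stand apart 10. Kcnip2 and Kcnv1 were called in every one of these fits.

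Other genes that handle potassium or hold channels in place were counted from lists. Of 24 tested channel partners (anchoring, clustering and accessory proteins), none rose, and 3 fell at 6 h, 10 at 12 h and 13 at 24 h. Of all tested genes 2.14%, 4.3% and 9.36% fell at these times, and 5.85%, 7.94% and 9.74% rose. The same shares are the background of the lists that follow. Cntnap1, part of the axonal junction that keeps Kv1 channels apart from the node, fell at 24 h (log2 fold change -0.58, SE 0.10, adjusted p = 0.00021), as did Adam23 (-0.54, adjusted p = 0.000721), Cntn1 (-0.49, adjusted p = 0.00223) and Lrrc55, an accessory subunit of BK channels (-0.71, adjusted p = 0.00239). Of 9 genes of the sodium-potassium pump, which returns potassium to the cell, 4 fell at 12 h and 4 at 24 h and none rose. At 24 h Fxyd7, a regulator of the pump, fell (log2 fold change -0.85, SE 0.17, adjusted p = 0.00102), as did the beta subunit Atp1b1 (-0.41, adjusted p = 0.00353) and the regulator Fxyd6 (-0.54, adjusted p = 0.00741).

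Of 5 potassium-chloride cotransport genes, 1 fell at 6 h, 1 at 12 h and 1 at 24 h, and 2 rose at 24 h. The neuronal exporter Slc12a5 fell at 24 h (log2 fold change -0.47, SE 0.10, adjusted p = 0.00127), while Slc12a4 (0.55, adjusted p = 0.0171) and Slc12a7 (0.83, adjusted p = 0.0387), which are expressed in many cell types, rose. Of 7 HCN and other potassium-permeable channels, 1 fell at 6 h, 2 fell and 1 rose at 12 h, and 2 fell at 24 h. Hcn4, a pacemaker channel, rose 2.58-fold at 12 h (log2 fold change 1.37, SE 0.32, adjusted p = 0.00578), and Tmem38a, a potassium-permeable channel of intracellular membranes, fell at 24 h (-0.48, SE 0.09, adjusted p = 0.000844). None of these genes passed at 3 h. They were not refitted without single libraries.

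Of 10 neuronal markers 3 fell at 6 h, 3 at 12 h and 5 at 24 h, against 2.14%, 4.3% and 9.36% of all tested genes. None of the other neuronal markers passed then. Averaged over the 4 times, 4 fell and Map2, a neuronal microtubule gene, rose (log2 fold change 0.17, SE 0.06, adjusted p = 0.0473). Their summed level at 24 h was 3506 to 4115 CPM in ipsilateral, 4802 to 5183 CPM in contralateral and 4776 to 5282 CPM in sham cortex, so that the ipsilateral libraries lay below both. Stmn2, a neuronal cytoskeletal gene, fell at 24 h (log2 fold change -0.76, SE 0.12, adjusted p = 6.44e-05), as did Slc17a7 (-0.72, adjusted p = 8.57e-05). Of 6 interneuron markers 1 fell at 6 h, 2 at 12 h and 2 at 24 h. Of 6 microglial markers 1 fell at 6 h, 2 at 12 h and 3 at 24 h. None of 6 oligodendrocyte, 5 tested striatal or 9 choroid plexus markers passed at any time, and of 3 oligodendrocyte precursor markers 1 fell at 6 h. The part of a change in cell makeup in the results for the channel genes was not tested.

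Of the 78 members 44 passed at none of the 4 times between the sides. The share that passed at some time was 43.6% of the members. It was 26.9% of all tested genes and 29% of those at or above the members' level. The log2 fold change was below 0 at all 4 times for 27 members and above 0 at all 4 times for 7. These 2 counts were not made for all tested genes. At 3, 6, 12 and 24 h it was below 0 for 50, 51, 51 and 53 of the 78 members. The same held for 9020, 9448, 9158 and 8567 of the 18087 tested genes. The 2 antisense transcripts, both KCNE subunits and both BK beta subunits were among those that did not pass.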

How the data were processed

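The values are counts per gene, deposited by the authors for 27 libraries. The submitters' processing notes name STAR 2.5.0a, featureCounts 1.4.3-p1, edgeR (with no version) and genome build mm10. Annotation, strand setting and the role of edgeR: not given in the sources used here. Coordinates, exon length and GC content came from GENCODE M21 (mm10), in which 22177 of 22340 symbols, among them all 78 members, were found. Counting that ignores strand would mix antisense and overlapping genes, and close paralogs may share reads.

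The low-count filter was filterByExpr with a minimum count of 10 and a minimum total of 15. It left 18087 genes and removed 0.0116% of the counts. A single quasi-likelihood model in edgeR 4.0.16 (R 4.3.3) held all libraries, with TMM scaling, 1 mean per group and robust dispersion. Each adjusted p is Benjamini-Hochberg adjusted over all tested genes, from the F-test of that model, and passes under 0.05. The test was checked on simulated counts. Log2 fold changes come from the model, and SEs from its test statistic. CPM are given per library or as mean ± SD. Totals of 26505996 to 48830897 counts set the counting precision, which is lowest for members near 1 CPM. The p-values measure the spread between samples of distinct surgery days.

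Members and gene lists were chosen with earlier results of these data known, and no list was tested as a set. Lists cover neurons, interneurons, astrocytes, microglia, infiltrating myeloid cells, oligodendrocytes and their precursors, endothelium, pericytes, striatal neurons, choroid plexus, channel partners, HCN and other potassium-permeable channels, the sodium-potassium pump and potassium-chloride cotransport. By rule, any member past the test between the sides may be named. Per-library values go to up to 5 rises and 5 falls of smallest adjusted p per time, to the 5 smallest of the test of differing effects, and to members followed throughout (Kcnj10, Kcnj2, Kcnj8, Kcnj13, Kcnd1, Kcna3, Kcnk2, Kcnk13, Kcnn4, Kcnq3, Kcnma1, Kcnip3, Kcnt1), with some left out for brevity. Kcna1, and the members named in the comparison with sham alone, were chosen after their values were seen. The listed marker Drd1 was not analysed here, and some genes are not reported here by name.

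A replicate number stands for a day of surgery, per the series text, and so pairs libraries. Deviations from the group means correlated at 0.0475 on average between same-numbered libraries (108 pairs, of which 31 exceeded 0.1), and at -0.0237 between differently numbered ones (216 pairs, 15 above 0.1). The reported model has no block, and a fit with the replicate block was an alternative. The other alternatives were RLE size factors, no filter, the libraries of the compared groups alone, DESeq2 1.42.0, each library left out in turn, and the 2 libraries that stand apart left out.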

Additional observations from a re-analysis of the deposited data

Results flagged for a closer look

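For 2 members the difference between ipsilateral and contralateral cortex itself differed between the 4 reperfusion times, by a test of that difference over all tested genes. For Kcnip2 the adjusted p was 0.00726, with log2 fold changes of 0.16, -0.21, -0.49 and -0.83 at 3, 6, 12 and 24 h. For Kcnv1 the adjusted p was 0.0227, with log2 fold changes of 0.47, 0.44, -0.51 and -0.42.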

How the results depend on the processing

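Numbers of members past the test are given first, without the share of all tested genes in the same fit. In a fit of the compared groups alone they were 0 at 3 h and 14 at 24 h between the sides, 1, 14 and 22 at 3, 6 and 12 h for ipsilateral against sham, and 4 and 1 at 12 and 24 h for contralateral against sham. Without both libraries that stand apart they were 0 at 3 h and 23 at 12 h between the sides, 2 at 3 h for ipsilateral against sham, 4 and 2 at 12 and 24 h for contralateral against sham, and 10 for effects that differ between times. Contralateral against sham at 3 h gave 1 (Kcns2) with RLE size factors, with no filter, with the replicate block and with DESeq2. DESeq2 gave 3 and 2 for contralateral against sham at 12 and 24 h and 5 for differing effects, and the replicate block gave 4. Between the sides the block ended the call of Kcnv1 at 12 h, and it ended no other call of a member in any comparison. The other alternatives kept the counts within 1.5 times. The cause was not tested, beyond fewer libraries in the fits that leave some out.

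Leaving out each library in turn gave 0 to 1, 5 to 11, 6 to 15 and 9 to 21 members between the sides at 3, 6, 12 and 24 h, and 0 to 0, 2 to 6, 3 to 10 and 15 to 24 for ipsilateral against sham. For contralateral against sham it gave 0 to 1, 0 to 0, 0 to 1 and 0 to 0, for the mean effect 31 to 39 and for differing effects 2 to 6. No call changed direction. Directions that changed were those of followed members that had not passed. Without both libraries that stand apart the log2 fold change became 0.052 for Kcnk2 and -0.078 for Kcnip3 at 3 h and -0.050 for Kcnd1 at 24 h, and with no filter that of Kcnj2 at 12 h became -0.0028. Without single libraries it ran at 3 h from -0.35 to 0.23 for Kcnj8, -0.30 to 1.79 for Kcnj13, -0.17 to 0.055 for Kcnk2, -0.13 to 0.026 for Kcnq3, -0.076 to 0.23 for Kcnip3 and -0.18 to 0.047 for Kcnt1. At 6 h it ran from -0.20 to 0.029 for Kcnj10, -0.32 to 0.0034 for Kcnj8 and -0.36 to 0.38 for Kcnj13. At 12 h it ran from -0.10 to 0.10 for Kcnj2 and -0.060 to 0.13 for Kcnk13, and at 24 h from -0.25 to 0.32 for Kcnj13 and -0.056 to 0.12 for Kcnd1.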
